A study of Mus musculus with 16 samples.

Results

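Imprinted genes are the genes of which mainly the maternal or mainly the paternal copy is used. The 10 followed here were *H19*, *Igf2*, *Dlk1*, *Meg3*, *Peg3*, *Grb10*, *Plagl1*, *Mest*, *Ndn* and *Zdbf2*, chosen by gene symbol among the 30386 genes of the deposited table of CPM, the reads of a gene scaled to the total of its library. All 10 symbols were found in the table, 1 row each. They were compared between *Dbx2*-NSPCs and *GFP*-NSPCs, which are neural stem and progenitor cells (NSPCs) derived from the subventricular zone (SVZ) of C57BL/6 J/Babr mice of 3 months of age. *Dbx2*-NSPCs carried a pTP6-Dbx2 plasmid for constitutive expression of the homeobox gene *Dbx2*, and *GFP*-NSPCs carried the control plasmid pTP6-hrGFP. Both had been nucleofected, selected and maintained with puromycin, and grown with EGF and FGF2 as non-adherent bulk cultures. Each transgene was represented by 8 samples with replicate numbers 1 to 8. The study used 2 pairs of independently derived lines, but the sample labels do not give the line, and nothing in them ties a number to a line. The samples numbered 1 to 4 and 5 to 8 were therefore compared as number sets only, a division that earlier results of these data had already shown. P-values measure the spread between these cultures, not between mice.

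Imprints are set in the germ line as DNA methylation at control regions, and they are kept through later divisions by factors such as *Zfp57*, *Trim28* and *Dnmt1*. Many imprinted genes act on growth: *Igf2* is a growth factor, *Grb10* an adaptor that restrains insulin and IGF receptor signalling, *Dlk1* a Notch-related membrane and secreted protein, and *Plagl1* and *Peg3* are zinc finger proteins. *H19*, expressed from the maternal copy, and *Igf2*, expressed from the paternal copy, share 1 control region, while *Dlk1* and the non-coding RNA *Meg3* form another such pair. In the adult SVZ, *Dlk1* and *Igf2* are known for their part in the maintenance of neural stem cells. The libraries were made from bulk RNA of an inbred strain, so that the parental copies could not be told apart, and a lower level means less RNA per cell or fewer cells with that RNA, which cannot be told apart either.

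The genes lie apart in the genome. In GRCm38 with GENCODE M21, *H19* is at chr7:142575529-142578143 on the minus strand and *Igf2* at chr7:142650766-142666816 on the same strand. *Peg3* is at chr7:6703892-6730431 (minus) and *Ndn* at chr7:62346569-62350262 (plus), so that 4 of the 10 are on chromosome 7. *Mest* is at chr6:30723547-30748465 (plus), *Plagl1* at chr10:13060504-13131694 (plus), *Grb10* at chr11:11930508-12038683 (minus) and *Zdbf2* at chr1:63273265-63314576 (plus). *Dlk1* at chr12:109452823-109463336 and *Meg3* at chr12:109541001-109571726 are both on the plus strand.

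Many imprinted genes carry their mark, or a mark that follows it, at a promoter rich in CpG, the dinucleotide that is methylated. Promoters are shown for the 4 genes tested below that had an entry in the RefSeq promoter windows (build GRCm38.p6), which run from 250 bases before to 50 bases after a transcript start. They are written 5′ to 3′ along the gene's strand with every CpG in capitals, and for *Mest*, which had several windows, the first of those with the most CpGs is given. The windows are chr7:6730370-6730669 (minus) for *Peg3*, chr6:30737800-30738099 (plus) for *Mest*, chr10:13090582-13090881 (plus) for *Plagl1* and chr7:62348027-62348326 (plus) for *Ndn*.
Peg3: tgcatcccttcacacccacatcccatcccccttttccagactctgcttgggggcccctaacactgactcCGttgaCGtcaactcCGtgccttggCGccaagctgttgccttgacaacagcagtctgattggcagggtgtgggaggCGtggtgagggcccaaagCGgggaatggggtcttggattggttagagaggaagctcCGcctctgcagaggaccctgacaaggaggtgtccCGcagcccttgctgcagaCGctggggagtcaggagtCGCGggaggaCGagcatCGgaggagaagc
Mest: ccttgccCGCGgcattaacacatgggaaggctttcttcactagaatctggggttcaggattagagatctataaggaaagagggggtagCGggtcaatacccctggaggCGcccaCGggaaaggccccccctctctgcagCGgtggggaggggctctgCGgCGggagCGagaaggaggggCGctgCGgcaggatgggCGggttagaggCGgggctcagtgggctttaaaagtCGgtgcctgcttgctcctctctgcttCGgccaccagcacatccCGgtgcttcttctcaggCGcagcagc
Plagl1: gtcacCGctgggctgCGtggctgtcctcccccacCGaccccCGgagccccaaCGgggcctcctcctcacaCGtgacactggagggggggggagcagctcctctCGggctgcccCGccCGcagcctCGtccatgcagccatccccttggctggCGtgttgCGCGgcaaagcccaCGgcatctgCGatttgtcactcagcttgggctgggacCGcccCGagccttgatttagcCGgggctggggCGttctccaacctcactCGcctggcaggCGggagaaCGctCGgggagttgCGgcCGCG
Ndn: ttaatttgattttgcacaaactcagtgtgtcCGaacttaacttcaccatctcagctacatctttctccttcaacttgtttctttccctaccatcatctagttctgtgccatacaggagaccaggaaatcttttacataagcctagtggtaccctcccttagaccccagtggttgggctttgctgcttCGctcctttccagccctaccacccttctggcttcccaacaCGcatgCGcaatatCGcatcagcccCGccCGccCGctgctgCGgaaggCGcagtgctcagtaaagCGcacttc
The *Plagl1* window held 26 CpGs, that of *Mest* 17, that of *Peg3* 13 and that of *Ndn* 11, against a median of 7 over all 32851 windows. Fewer CpGs than in the *Plagl1* window were held by 83.1% of all windows, and fewer than in that of *Mest* by 68.6%. For *Peg3* and *Ndn* these shares were 62.1% and 58.6%, so that their windows were not far from the middle. The letters TGCCGC, the core that ZFP57 binds when methylated, were searched for on both strands. They were present 2 times in the *Mest* window and 1 time in that of *Plagl1*, and they were not found in the *Peg3* and *Ndn* windows. Of all windows, 11.6% held them. Methylation was not measured, so these sequences are a description only.

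*H19* is itself the source of a miRNA, miR-675, whose mature forms lie in an *H19* exon (chr7:142577112-142577133 for the 5p form and chr7:142577078-142577099 for the 3p form, minus strand, GRCm38.p6). Their RefSeq sequences are shown because a change of *H19* RNA is a change of the precursor of both, with the seed, bases 2 to 8, in capitals.
mmu-miR-675-5p: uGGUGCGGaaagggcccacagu
mmu-miR-675-3p: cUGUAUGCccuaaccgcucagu
The libraries were primed at the poly-A tail and did not measure mature miRNAs.

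The QuantSeq libraries, prepared with 100 ng of RNA per culture, give reads near the 3′ end of a transcript, so that CPM were not divided by gene length. Whole reads could be recovered from the CPM, and the 16 libraries held between 1803928 and 3293285 of them. The floor, taken as 3 reads of a library, corresponds to 0.911 to 1.66 CPM. *Dbx2* itself ranged from 89.31 to 171.22 CPM in *GFP*-NSPCs numbered 1 to 4 and from 135.99 to 232.13 CPM in the *Dbx2*-NSPCs of those numbers, so the groups overlapped there. Among the samples numbered 5 to 8 it ranged from 30.67 to 39.48 CPM and from 114 to 155.22 CPM, without overlap. All 9 NSPC markers examined were detected, with a summed level of 5709 to 7632 CPM per sample. Of these 9, *Fabp7*, *Egfr* and *Pax6* were called as lower in *Dbx2*-NSPCs over the 16 samples and 0 as higher (limma adjusted p under 0.05). Of all genes tested, 15.8% were called in that comparison. Markers of mature oligodendrocytes, ependyma, endothelium and microglia were near 0: *Mog*, *Pifo*, *Tmem212*, *Cldn5*, *Cdh5* and *Aif1* were at 0 in both groups.

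**Figure D1:**
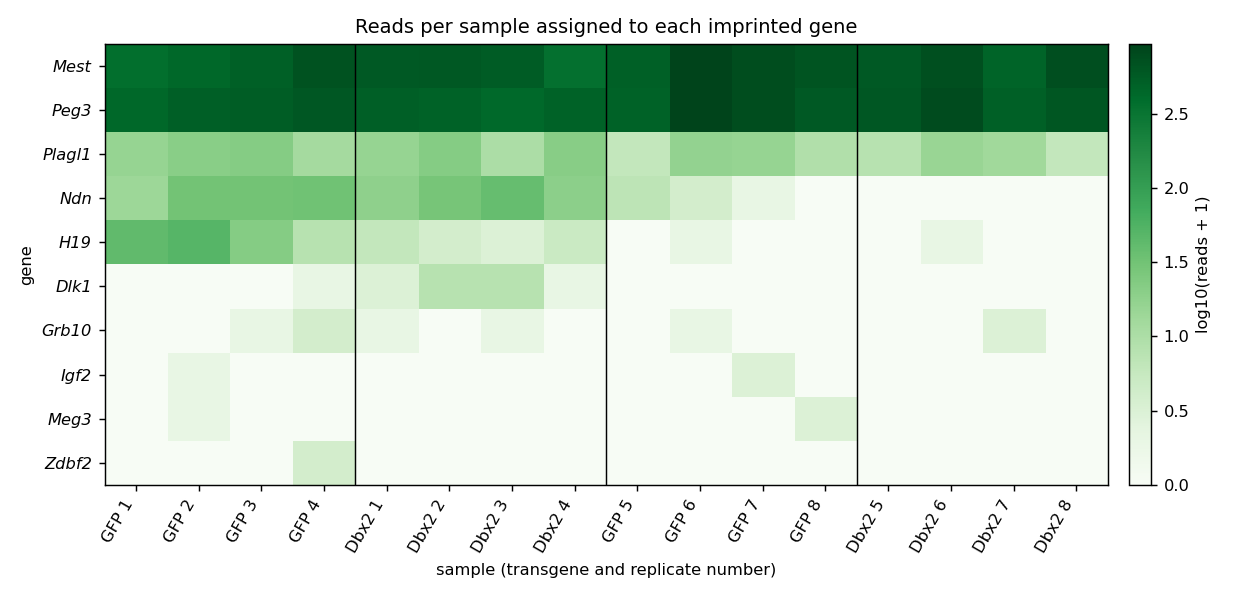
Reads recovered for the 10 imprinted genes (rows) in the 16 samples (columns, by transgene and replicate number, with black lines between number sets), coloured by log10(reads + 1). *Mest*, *Peg3* and *Plagl1* had reads in all 16 samples, *Ndn* and *H19* mostly in numbers 1 to 4, and the other 5 genes had at most 18 reads in all.

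The 10 genes fell into 3 tiers of expression. *Mest*, a hydrolase-like protein of the endoplasmic reticulum, and *Peg3* were abundant, with 211 ± 50.1 and 209 ± 44 CPM (SD, n = 16), and did not differ beyond their spread. *Plagl1* (4.66 ± 1.72 CPM), *Ndn* (4.58 ± 4.57 CPM) and *H19* (3.01 ± 5.68 CPM) formed a second tier, with overlapping spreads (SD, n = 16 each). *Dlk1*, *Grb10*, *Igf2*, *Meg3* and *Zdbf2* were nearly silent, with means of 0.0625 to 0.358 CPM. A total of 5 genes, *H19*, *Peg3*, *Plagl1*, *Mest* and *Ndn*, passed the filter of more than 1 CPM in at least 4 samples and were tested among 12533 genes, and the 5 nearly silent ones are given as values.

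Over all 16 samples, none of the 5 tested imprinted genes passed the test between *Dbx2*-NSPCs and *GFP*-NSPCs (limma adjusted p under 0.05: 0 of 5, against 15.8% of all genes tested). The number was also 0 at an unadjusted p under 0.05, and edgeR on the recovered reads called 1, *H19*. All 5 log2 fold changes were below 0, with a median of -0.22 against -0.02 over all genes tested. They were -1.24 for *H19*, -0.73 for *Ndn*, -0.22 for *Peg3*, -0.20 for *Plagl1* and -0.17 for *Mest*, on the log2(CPM + 0.5) scale. Leaving out single samples moved 4 of them by over 1.5 times. At the ends, *H19* was at -0.81 without *GFP*-NSPC number 2 and at -0.82 without number 1, *Plagl1* ran from -0.31 without *Dbx2*-NSPC number 4 to -0.05 without number 8, *Mest* was at -0.08 without *Dbx2*-NSPC number 4, and *Ndn* ran from -1.12 without *GFP*-NSPC number 8 to -0.44 without any 1 of *Dbx2*-NSPC numbers 5 to 8. With the replicate number as a block, *Peg3* passed (limma adjusted p = 0.0179, with 0.0179 to 0.490 over all alternatives). The main fit had no term for the number set. When the set was added as a covariate, *H19* and *Peg3* were called, among 3034 of the 12533 genes tested.

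*H19*, a non-coding RNA that restrains growth, had the largest fold change of the 5. In *GFP*-NSPCs numbered 1 to 4, *H19* was at 16.52, 17.28, 6.84 and 2.33 CPM, which are 41, 49, 21 and 7 reads. The *Dbx2*-NSPCs numbered 1 to 4 were at 1.61, 0.91, 0.65 and 1.44 CPM, or 5, 3, 2 and 4 reads. Every one of these *Dbx2*-NSPC samples was thus below every *GFP*-NSPC sample, although the *GFP*-NSPC samples were themselves far apart and the *Dbx2*-NSPC samples lay near the floor. *H19* fell by 2.47 on the log2 scale (SE 0.533, 95% interval -3.63 to -1.31, limma adjusted p = 0.00824, n = 4 in each group), and the mean CPM were 9.32-fold apart. Of the 5 tested genes this was the only 1 called in numbers 1 to 4, where 15.6% of all genes tested were called, and the only 1 whose groups did not overlap there, as was the case for 19.6% of all genes tested. *H19* exceeded 1 CPM in these 4 *GFP*-NSPC samples and in 2 others, so it passed the filter through the group in which it was high, and these counts are a description. The call was lost without a filter beyond a value above 0 in a sample (limma adjusted p = 0.0663, with 7.35e-04 to 0.0663 over the alternatives).

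In numbers 5 to 8, *H19* could not be compared. In both groups 3 of 4 samples held 0 reads of *H19* and number 6 held 1, so that both groups were under the floor and no fold is given. Over the 4 *GFP*-NSPC samples, *H19* had 118 reads in numbers 1 to 4 and 1 read in numbers 5 to 8, a ratio of 108 per read sequenced (exact 95% counting interval 19 to 4303). In *Dbx2*-NSPCs it had 14 and 1 reads, a ratio of 12.8 (1.95 to 542). These intervals cover counting error only. *H19* was thus detected above the floor in 1 number set only, and the transgenes could be compared for it in that set only. The fit called a difference between the sets for *H19* (limma adjusted p = 0.0238). It is not read as a result, since the fold change of *H19* in numbers 5 to 8 is that of the floor. Of the 4 other tested genes, none was called for such a difference (limma adjusted p under 0.05, against 9.44% of all genes tested), 0 had an unadjusted p under 0.05, and edgeR called 0.

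**Figure D2:**
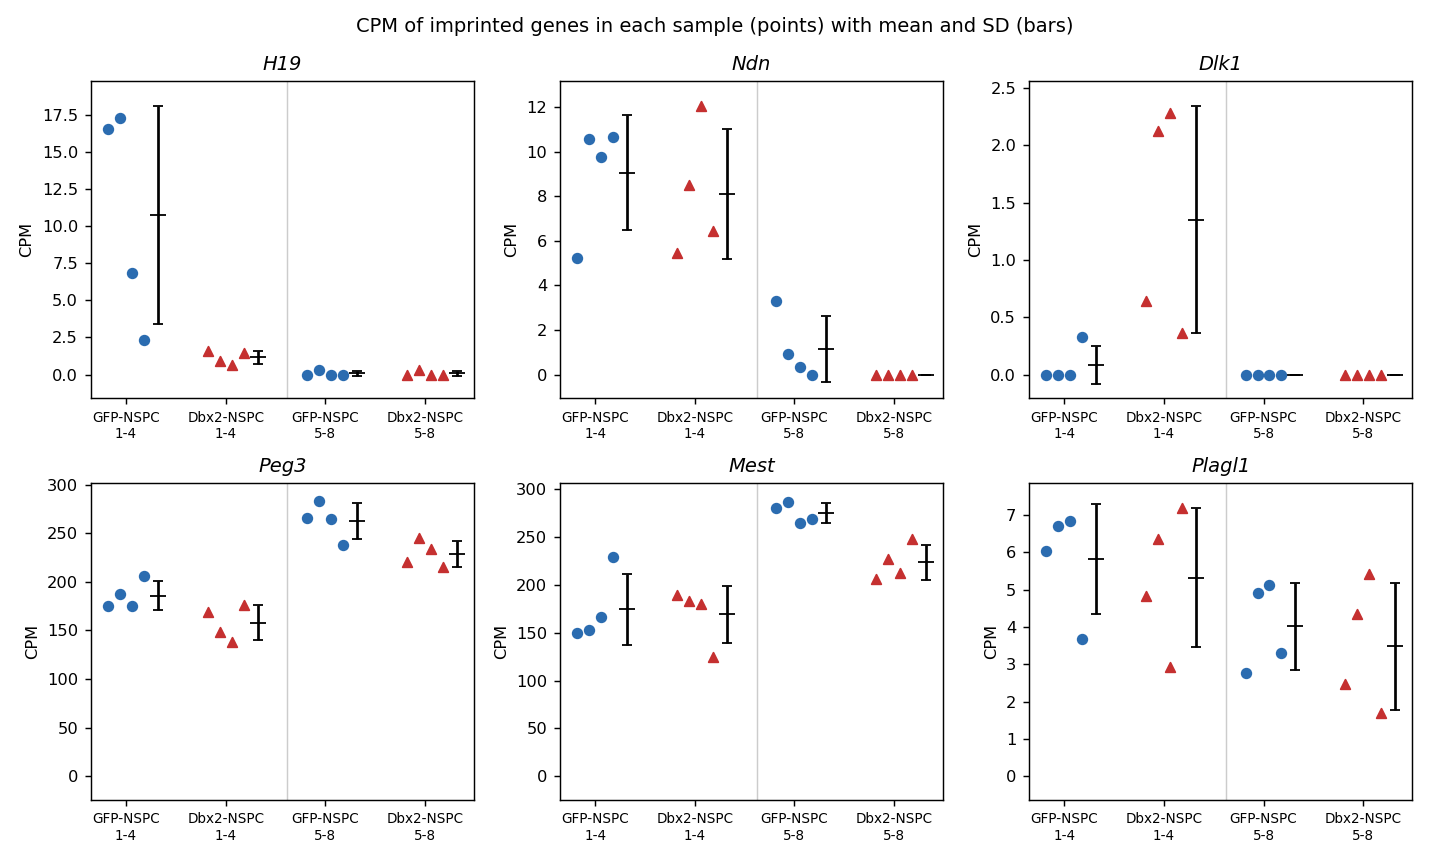
CPM (vertical axes, linear, 1 scale per gene) of *H19*, *Ndn*, *Dlk1*, *Peg3*, *Mest* and *Plagl1* in the samples of each transgene and number set, with blue circles for *GFP*-NSPCs, red triangles for *Dbx2*-NSPCs, and black bars for the mean and SD (n = 4). *H19* was at 2.33 to 17.28 CPM in *GFP*-NSPCs numbered 1 to 4 and at most at 1.61 CPM in all other samples.

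*Igf2*, the growth factor gene next to *H19*, was nearly silent in both groups. It had 3 reads in total, 1 in *GFP*-NSPC number 2 and 2 in number 7, and 0 in the 8 *Dbx2*-NSPC samples. A count of 0 in the 23493388 reads of *Dbx2*-NSPCs allows a level of up to 0.128 CPM. No change of *Igf2* was detectable at this depth, also where *H19* was present.

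*Dlk1* had 18 reads, of which 17 were in *Dbx2*-NSPCs numbered 1 to 4. Its CPM there were 0.64, 2.12, 2.28 and 0.36, against 0, 0, 0 and 0.33 in the *GFP*-NSPCs of the same numbers, and it was at 0 in all 8 samples numbered 5 to 8. Only numbers 2 and 3 of *Dbx2*-NSPCs were above the floor, with 7 reads each, and number 4 held 1 read, as did *GFP*-NSPC number 4. The groups of numbers 1 to 4 did not overlap in CPM, by a margin of 0.36 against 0.33. The summed reads of numbers 1 to 4, 17 against 1, are a ratio of 15.8 per read sequenced (exact 95% counting interval 2.47 to 660). *Dlk1* did not pass the filter and has no test in the fit. *Meg3*, the non-coding RNA of the other parental copy of this domain, had 3 reads, all in *GFP*-NSPCs, and 0 in *Dbx2*-NSPCs.

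*Grb10* had 9 reads, 5 in *GFP*-NSPCs and 4 in *Dbx2*-NSPCs, with no more than 3 in a sample. *Zdbf2*, a zinc finger gene imprinted in mouse and human, had 3 reads, all in *GFP*-NSPC number 4. Both were at or under the floor in every sample, and no fold is given.

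*Ndn*, the MAGE family protein necdin of the Prader-Willi domain, which restrains cell division in neurons, was also detected mostly in numbers 1 to 4. In *GFP*-NSPCs numbered 1 to 4, *Ndn* was at 5.24, 10.58, 9.77 and 10.66 CPM, and in *Dbx2*-NSPCs at 5.46, 8.5, 12.05 and 6.46 CPM. The groups overlapped and the log2 fold change was -0.16 (SE 0.312, 95% interval -0.84 to 0.52, limma adjusted p = 0.783). In numbers 5 to 8 it was at 3.32, 0.92, 0.34 and 0 CPM in *GFP*-NSPCs and at 0 in all 4 *Dbx2*-NSPCs. These were 10 reads against 0. Taking the 10 reads as exact and the floor of 3 reads over the other group, *Ndn* was at least 3.59-fold lower in *Dbx2*-NSPCs of these numbers. Only 1 of the 8 samples, *GFP*-NSPC number 5 with 6 reads, was above the floor of its own library. Without that sample, 4 reads were left and the bound was 1.74-fold. It was not called there (limma adjusted p = 0.110), while edgeR on the recovered reads called it (adjusted p = 0.0343, with 0.0325 to 0.286 over the alternatives). Between the sets, *Ndn* in *GFP*-NSPCs had 105 reads in numbers 1 to 4 and 10 in 5 to 8. This is a ratio of 9.61 (exact 95% counting interval 5.03 to 20.6), or 19.9 without *GFP*-NSPC number 5. In *Dbx2*-NSPCs it had 100 and 0 reads. With the 100 reads taken as exact and the same floor, it was at least 30.5-fold lower in numbers 5 to 8.

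*Peg3*, a zinc finger protein of the paternal copy that is linked to p53 and TNF signalling, had a slightly lower mean in *Dbx2*-NSPCs in both number sets. *Peg3* was at 175.25, 187.64, 174.97 and 205.94 CPM in *GFP*-NSPCs numbered 1 to 4 and at 169.2, 148.11, 137.74 and 176.17 CPM in the *Dbx2*-NSPCs. At the higher numbers, 5 to 8, its levels were 265.98, 283.1, 264.67 and 238.11 CPM in *GFP*-NSPCs and 219.99, 245.39, 234.3 and 215.75 CPM in *Dbx2*-NSPCs. The *Dbx2*-NSPC sample was the lower in 8 of 8 same-numbered comparisons, but in each set the highest *Dbx2*-NSPC sample lay above the lowest *GFP*-NSPC sample. The labels do not say that samples of the same number belong together, so the count of 8 is a description.

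The mean of *Peg3* was 15.1% lower in numbers 1 to 4 and 13% lower in numbers 5 to 8. Neither was called: the log2 fold changes were -0.24 (SE 0.106, limma adjusted p = 0.157) and -0.20 (SE 0.078, limma adjusted p = 0.0831). Without *GFP*-NSPC number 8, the difference in numbers 5 to 8 was called (adjusted p = 0.0389, with 0.0389 to 0.207 over the alternatives). The fold changes of both sets differed by 0.04 (95% interval -0.24 to 0.32, limma adjusted p = 0.906).

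*Mest* differed in numbers 5 to 8. It was at 280.39, 287.09, 264.67 and 269.36 CPM in *GFP*-NSPCs and at 205.91, 227.06, 213.09 and 248.5 CPM in *Dbx2*-NSPCs. All 4 *Dbx2*-NSPC samples were thus below all 4 *GFP*-NSPC samples, and the mean was 18.8% lower. *Mest* fell by 0.30 on the log2 scale (SE 0.0772, 95% interval -0.47 to -0.14, limma adjusted p = 0.0112, n = 4 in each group). Of the 5 tested genes *Mest* was the 1 called in numbers 5 to 8, where 23.2% of all genes tested were called, and the 1 without overlap, as were 24.8% of all genes tested. When the spread was estimated over all 16 samples in 4 cells the call was lost (adjusted p = 0.101, with 0.00446 to 0.101 over the alternatives).

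In numbers 1 to 4, *Mest* was at 149.46, 153.07, 166.5 and 229.27 CPM in *GFP*-NSPCs and at 189.43, 183.01, 180.4 and 124.86 CPM in *Dbx2*-NSPCs. Here number 4 was the highest of its group in *GFP*-NSPCs and the lowest of its group in *Dbx2*-NSPCs. The log2 fold change was -0.04 (SE 0.162, 95% interval -0.39 to 0.31, limma adjusted p = 0.901), and it turned to 0.10 without number 4 of either group. The difference of the fold changes between the sets was -0.26 (95% interval -0.64 to 0.11, limma adjusted p = 0.442), so that the sets were not shown to differ in *Mest*. *Mest* overlaps *Copg2*, a coat protein gene on the opposite strand, and whether reads were counted by strand is not given in the sources used here.

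*Plagl1*, a zinc finger factor that acts on cell cycle arrest and on other imprinted genes, did not separate the groups. In numbers 1 to 4 *Plagl1* ranged from 3.67 to 6.84 CPM in *GFP*-NSPCs and from 2.93 to 7.18 CPM in *Dbx2*-NSPCs. For numbers 5 to 8 the ranges were 2.77 to 5.12 CPM and 1.69 to 5.42 CPM. The log2 fold changes were -0.15 (95% interval -0.86 to 0.57, limma adjusted p = 0.812) and -0.25 (95% interval -1.04 to 0.53, limma adjusted p = 0.675), which leave room for a change in either direction.

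**Figure D3:**
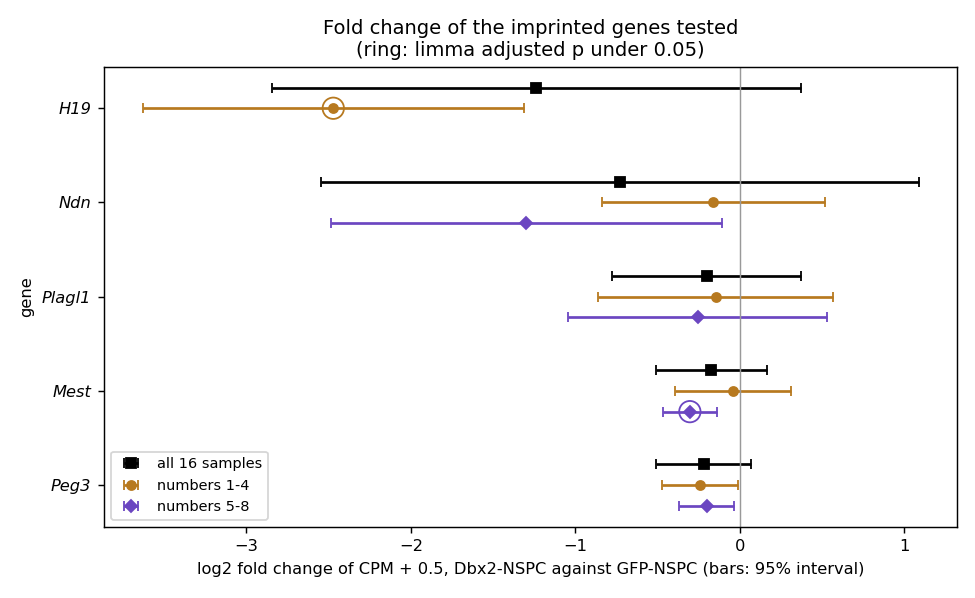
Log2 fold change of CPM + 0.5 in *Dbx2*-NSPCs against *GFP*-NSPCs (horizontal axis, bars for the 95% interval) of the 5 tested genes (vertical axis) over all 16 samples, numbers 1 to 4 and numbers 5 to 8, with a ring where the limma adjusted p was under 0.05. *H19* in numbers 1 to 4 (-2.47) and *Mest* in numbers 5 to 8 (-0.30) are ringed, and *H19* in numbers 5 to 8 is left out because it was under the floor.

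The tested genes also differed between the number sets. For 4 of the 5 tested genes, all samples of 1 set lay above all samples of the other within both transgenes, against 8.22% of all genes tested. *Peg3* and *Mest* were the higher in numbers 5 to 8, where the mean of *Peg3* was 1.41-fold that of numbers 1 to 4 in *GFP*-NSPCs and 1.45-fold in *Dbx2*-NSPCs, and that of *Mest* was 1.58-fold and 1.32-fold. *H19* and *Ndn* were the lower in numbers 5 to 8, and *Plagl1* overlapped in both transgenes. *H19* exceeded 1 CPM only in samples numbered 1 to 4, and *Ndn* only there and in *GFP*-NSPC number 5. Both thus passed the filter through the set in which they were high, so the count of 4 genes is a description. Since earlier results of these data had shown the division into number sets, it is given without a test. Over the 16 samples, log2 *Peg3* and log2 *Mest* correlated at 0.769 (Pearson), log2 *H19* and log2 *Ndn* at 0.713, and *Peg3* and *Ndn* at -0.71. These points share the division into number sets.

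The genes most like *Peg3* over the 16 samples were *Son*, a splicing cofactor, with a Pearson r of 0.949, and *Herc1*, a HECT domain protein, with 0.945. Those most like *Mest* were *Enox2* (r = 0.926) and *Cyth2* (r = 0.912). These are the highest of 12533 genes and the samples share the number sets and the transgenes, so the values are a description.

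Astroglial and neuronal markers differed along both divisions, and those of 1 type did not all go the same way. The RNA was bulk, so that the sums below are not counts of cells. The summed CPM of 4 astroglial markers (*Gfap*, *Aqp4*, *Aldh1l1* and *Slc1a3*, all detected) was 1695 to 2056 in *GFP*-NSPCs numbered 1 to 4 and 761 to 1034 in the *Dbx2*-NSPCs, where *H19* also differed. In numbers 5 to 8 it was 642 to 902 and 385 to 488. *Slc1a3* and *Aldh1l1* fell in both sets (log2 fold changes of -1.16 and -1.38 in numbers 1 to 4, limma adjusted p = 6.88e-05 and 3.23e-05). *Gfap*, the intermediate filament of astrocytes, instead rose, from 10.2 ± 8.85 to 65.3 ± 4.78 CPM in numbers 1 to 4 and from 1.38 ± 0.929 to 19.8 ± 4.78 CPM in numbers 5 to 8 (SD, n = 4 each, limma adjusted p = 0.00208 and 3.78e-06), and the water channel gene *Aqp4* rose by 1.26 on the log2 scale in numbers 5 to 8 (limma adjusted p = 0.0228).

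The summed CPM of 4 neuronal markers (*Dcx*, *Tubb3*, *Map2* and *Rbfox3*, all detected) was 838 to 936 in *GFP*-NSPCs and 702 to 734 in *Dbx2*-NSPCs of numbers 1 to 4, and 1218 to 1293 and 766 to 906 in numbers 5 to 8. Most of this sum was *Map2*, with means of 860 and 700 CPM in numbers 1 to 4. In numbers 5 to 8 the means of *Map2* were 1246 and 802 CPM. *Dcx*, the doublecortin gene of young neurons, was at 1.61, 3.17, 6.84 and 4.67 CPM in *GFP*-NSPCs and at 0, 0, 0.33 and 0 CPM in *Dbx2*-NSPCs of numbers 1 to 4, the samples in which *H19* differed. In numbers 5 to 8 *Dcx* went the other way, from 0, 0, 0 and 0.82 CPM to 3.52, 4.97, 5.42 and 5.06 CPM (limma adjusted p = 0.00111 and 8.48e-05 in the sets). In each set, *Dcx* exceeded the 1 CPM of the filter only in the 4 samples of the group in which it was high, so these calls are a description. *Rbfox3*, a splicing factor of mature neurons, likewise fell by 1.96 and rose by 2.90 on the log2 scale (limma adjusted p = 0.0106 and 1.25e-04), while *Map2* fell in both sets, by 0.30 and 0.64 (limma adjusted p = 0.0302 and 2.13e-05). The part of astroglial and neuronal cells in the differences of *H19* and *Mest* was not tested. The summed CPM of 8 mesenchymal markers, from a lineage in which *H19*, *Igf2* and *Dlk1* are known to be high in the fetus, was 0.4 to 0.7 in *GFP*-NSPCs and 1.44 to 6.1 in *Dbx2*-NSPCs of numbers 1 to 4, and 0 to 2.05 and 0.9 to 3.42 in numbers 5 to 8. Of these 8, the smooth muscle actin gene *Acta2* alone was tested. It passed the filter only through the *Dbx2*-NSPCs numbered 1 to 4, the group in which it was high, so its call is a description. *Acta2* was at 0 in the 4 *GFP*-NSPC samples numbered 1 to 4 and at 5.14, 4.25, 2.28 and 1.08 CPM in the *Dbx2*-NSPCs, the samples in which *Dlk1* was seen (limma adjusted p = 0.00162), and at most at 0.41 CPM in numbers 5 to 8. The other 7 averaged under 1 CPM in each group of each set, with *Col3a1*, *Pdgfrb*, *Lum* and *Tagln* at 0 in *Dbx2*-NSPCs numbered 1 to 4. The part of mesenchymal cells in the values of *Dlk1* was not tested.

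To place the 10 genes among their kind, 64 other imprinted genes were listed, of which 61 were in the table and 36 were tested. Of these, 11 were called over the 16 samples (30.6%, against 15.8% of all genes tested): 5 rose, 6 fell and 25 did not pass. Their median log2 fold change was -0.05, against -0.02 over all genes tested. In the *Kcnq1* domain, *Tssc4* rose by 1.44, the oxysterol-binding protein gene *Osbpl5* by 1.29 and the tetraspanin gene *Cd81* by 0.86 on the log2 scale (limma adjusted p = 8.41e-06, 3.17e-06 and 2.15e-05), while *Nap1l4* (-0.05) and *Kcnq1ot1* (-0.01) of the same domain did not pass.

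The largest decrease among these genes was that of *Sgce*, which codes for epsilon-sarcoglycan. In numbers 1 to 4, *Sgce* had a mean of 14.2 ± 4.33 CPM with the *GFP* and of 0.957 ± 0.766 CPM with the *Dbx2* transgene, and in numbers 5 to 8 of 11.1 ± 1.73 and 4.98 ± 1.22 CPM (SD, n = 4 each). Its groups overlapped in neither set. It fell by 2.27 over the 16 samples (limma adjusted p = 6.55e-04), and the fall was the larger in numbers 1 to 4 (difference of the fold changes 2.35, limma adjusted p = 0.00136). In *Dbx2*-NSPCs numbered 1 to 4, *Sgce* was at 1.93, 1.21, 0.33 and 0.36 CPM, near or under the floor. The size of its fall there, and of the difference between the sets, is thus uncertain. *Peg10*, the retrotransposon-derived gene that shares the control region of *Sgce*, was named after its values were seen. It was not called over the 16 samples (log2 fold change -1.47, limma adjusted p = 0.0544), but it was 3.53-fold lower by the means in numbers 1 to 4 and 2.23-fold lower in numbers 5 to 8 (limma adjusted p = 8.01e-05 and 3.68e-07).

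*Nnat*, which codes for the proteolipid neuronatin and was also named after its values were seen, went in opposite directions in the sets. The mean of *Nnat* in numbers 1 to 4 was 587 ± 169 CPM with the *GFP* and 237 ± 27 CPM with the *Dbx2* transgene, but 8.99 ± 4.85 and 24.2 ± 9.95 CPM in numbers 5 to 8 (SD, n = 4 each). It fell by 1.26 in the first set and rose by 1.45 in the second (limma adjusted p = 0.00111 and 0.0134), and the fold changes differed (limma adjusted p = 7.25e-05). Like *H19* and *Ndn*, it was the higher in numbers 1 to 4 within both transgenes.

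*Herc3*, a HECT domain protein, rose by 0.86 (limma adjusted p = 0.00699), while the phosphatase gene *Inpp5f* fell by 0.73 and *Peg12*, a neighbour of *Ndn*, fell by 0.59 (limma adjusted p = 1.53e-04 and 0.00795). Smaller decreases were those of *Ppp1r9a* (-0.39), *Chrac1* (-0.34) and *Ube3a* (-0.20), the ubiquitin ligase gene of the Angelman syndrome (limma adjusted p = 0.0435, 0.0324 and 0.0447). These 3 calls were lost when a single sample was left out, in 11, 8 and 11 of 16 cases, with adjusted p up to 0.0862, 0.0683 and 0.0889. *Begain* of the *Dlk1* and *Meg3* domain was called as higher (limma adjusted p = 0.00753), but it had 5 reads in *GFP*-NSPCs and 34 in *Dbx2*-NSPCs, close to the floor. Of the 11 called genes it was the 1 that passed the filter only through the group in which it was high, with more than 1 CPM in 7 *Dbx2*-NSPC samples and 1 *GFP*-NSPC sample, so its call is a description. Its fitted fold change ran from 0.59 to 2.70 over the alternatives.

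The other tested neighbours of the 10 genes did not pass over the 16 samples. In the *Peg3* domain, *Usp29*, which starts beside *Peg3* on the opposite strand, had a log2 fold change of -0.44 and *Zim1* of 0.55 (limma adjusted p = 0.123 and 0.0870). *Copg2* beside *Mest* had -0.42 (limma adjusted p = 0.0527), *Phactr2* beside *Plagl1* -0.35 (limma adjusted p = 0.323), and *Mkrn3*, *Snrpn* and *Atp10a* of the *Ndn* domain -0.29, -0.10 and 0.57.

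Within the number sets, some of these neighbours were called. *Snrpn*, *Atp10a* and *Usp29* were called in numbers 1 to 4, where 15.6% of all genes tested were called. *Snrpn* and *Phactr2* were called in numbers 5 to 8, where 23.2% of all genes tested were called. *Zim1*, *Copg2* and *Mkrn3* were called in neither set. The difference between the sets was called for 9.44% of all genes tested. *Snrpn*, which codes for a protein of the splicing machinery, fell from 56.1 ± 4.32 to 36.5 ± 5.21 CPM in numbers 1 to 4 and rose from 38.2 ± 3.03 to 51.6 ± 6.39 CPM in numbers 5 to 8 (SD, n = 4 each, limma adjusted p = 0.00863 and 0.0220), and these fold changes differed (limma adjusted p = 3.63e-04). *Atp10a*, a phospholipid flippase gene, rose by 1.58 on the log2 scale in numbers 1 to 4 (limma adjusted p = 0.0102), with a value of -0.43 in numbers 5 to 8 that did not pass, and the fold changes differed (limma adjusted p = 0.00389). *Usp29* fell by 0.76 in numbers 1 to 4 (limma adjusted p = 0.0148), and the difference from numbers 5 to 8 did not pass (limma adjusted p = 0.174). *Phactr2* fell by 0.85 in numbers 5 to 8 (limma adjusted p = 0.00108) and had 0.15 in numbers 1 to 4, a difference that passed (limma adjusted p = 0.0236).

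**Figure D4:**
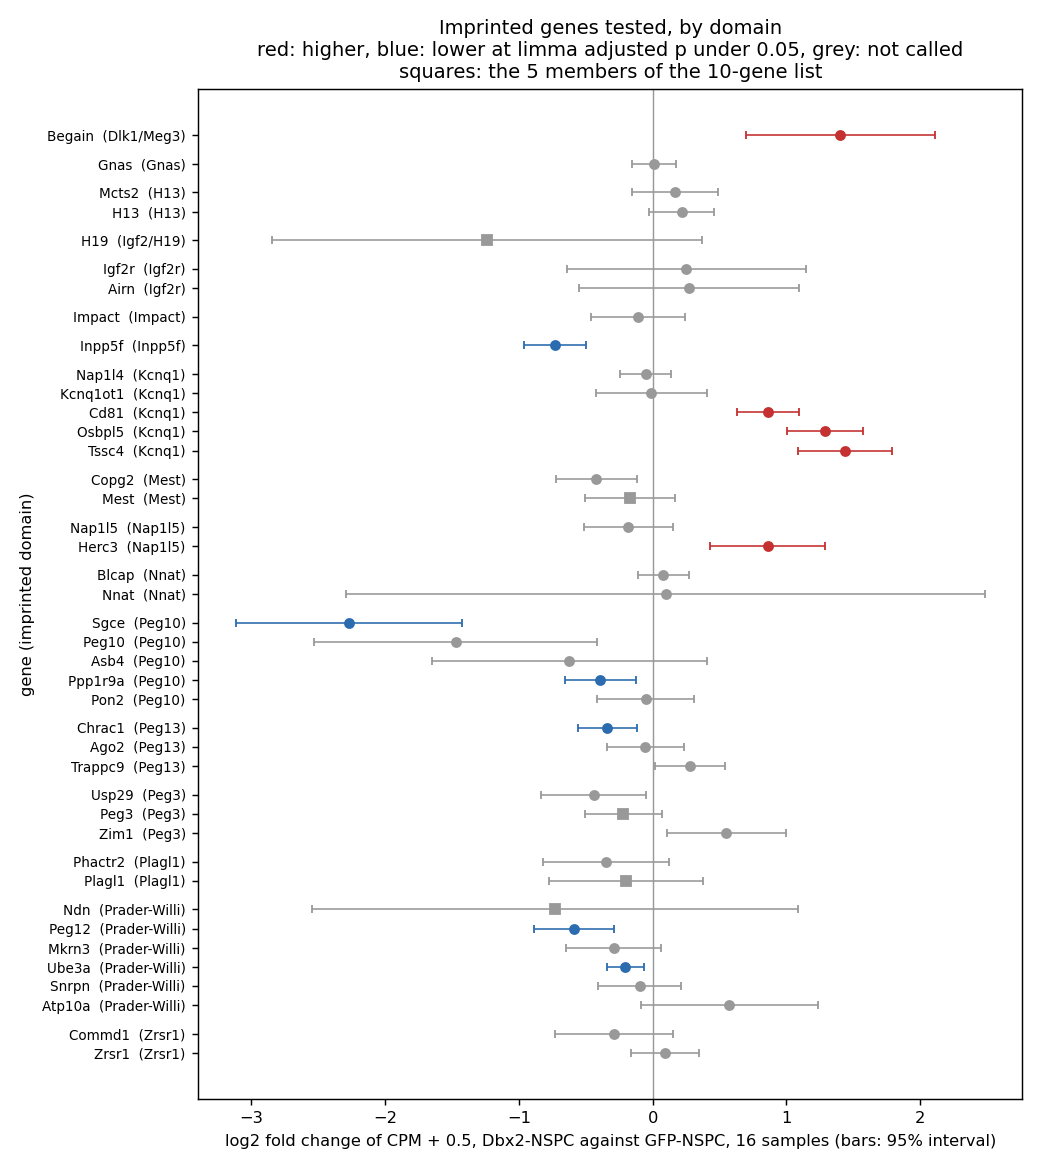
Log2 fold change of CPM + 0.5 in *Dbx2*-NSPCs against *GFP*-NSPCs over 16 samples (horizontal axis, bars for the 95% interval) of the 5 tested genes of the list (squares) and 36 other imprinted genes (circles), by imprinted domain (vertical axis), in red or blue where the limma adjusted p was under 0.05. *Sgce* (-2.27) and *Tssc4* (1.44) lie at the ends, and in the *Kcnq1* domain 3 called genes lie beside *Nap1l4* (-0.05) and *Kcnq1ot1* (-0.01), which were not called.

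Of 16 genes that set, keep or remove the methylation of imprints, 14 were tested and 3 were called (21.4%, against 15.8% of all genes tested), with a median log2 fold change of -0.10. The 3 were *Tet1*, *Tet2* and *Tet3*, which do not keep methylation but oxidise it and so lead to its removal. *Tet1* fell by 1.01, *Tet2* by 0.97 and *Tet3* by 0.55 (limma adjusted p = 0.00341, 0.00170 and 0.0194). The mean CPM of *Tet1* was 42.6 ± 6.58 against 22 ± 7.76 in numbers 1 to 4 and 72.8 ± 10.2 against 35.2 ± 4.68 in numbers 5 to 8 (SD, n = 4 each). *Trim28* (-0.26), *Uhrf1* (-0.50) and *Dnmt1* (0.17) did not pass over the 16 samples (limma adjusted p = 0.127, 0.0688 and 0.223). By set, *Tet1* and *Tet3* were called in both, *Tet2* in numbers 1 to 4 (-1.29, limma adjusted p = 0.00241) but not in numbers 5 to 8 (-0.66, limma adjusted p = 0.0647), and *Trim28* in numbers 5 to 8 (-0.36, limma adjusted p = 0.0106) but not in numbers 1 to 4 (-0.16, limma adjusted p = 0.416). The test of the difference between sets did not pass for *Tet2* (limma adjusted p = 0.284) or *Trim28* (limma adjusted p = 0.533).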

How the data were processed

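Total RNA of 8 *Dbx2*-NSPC and 8 *GFP*-NSPC cultures was sequenced in single-end reads of 101 bp. The authors trimmed the reads with bbduk, mapped them with STAR 2.5.0a to GRCm38 with Ensembl annotation, and deposited 1 table of CPM per gene and sample. The counting tool and its strand setting are not given in the sources used here, and 0 columns of the table were left unused. Low values of each sample were whole multiples of the CPM of 1 read, and 100% of the values came out as whole reads within 0.1 read. Depth was 1803928 to 3293285 reads per sample.

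The transgene named in a sample's labels set its group. The study's line covariate could not be fitted because the labels do not give the line. A gene entered the tests if 4 or more samples exceeded 1 CPM. Tests used the moderated linear models of limma 3.58.1 (lmFit, eBayes with trend; R 4.3.3) on log2(CPM + 0.5), over all samples, within numbers 1 to 4 and 5 to 8, and for the difference between these. P-values were adjusted over all 12533 genes by the Benjamini-Hochberg method, with a threshold of 0.05. Fold changes on this scale understate changes of low genes. On simulated data of the 16-sample comparison with 12533 genes, limma recovered 84 of 100 genes changed 2-fold and 94 of 100 changed 4-fold, with 11 false calls. The simulated samples had no difference between number sets, so this recovery need not hold for genes that differ between the sets. In the data, 1982 genes were called in the 16-sample comparison, and 3034 with the number set as a covariate. Ratios of summed reads have exact (Clopper-Pearson) intervals.

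Named were the 10 genes, other imprinted genes past the threshold (the 10 largest at most, with *Ube3a* as a neighbour of *Ndn*), tested neighbours of the 10, imprint methylation genes past the threshold, and the 2 genes most correlated with each member of at least 10 CPM on average. The members and lists were chosen with earlier results of these data known. Deviations from the group means of same-numbered samples correlated at 0.152 to 0.303, which includes the division into sets; within sets they correlated at -0.00741 to 0.119. The numbers, taken from the labels, were used as a block on the 16-sample comparison. Alternatives were other pseudocounts, filters and scaling (TMM), edgeR 4.0.16 on recovered reads, the block, the number set as a covariate, and leaving out each sample; the read ratios without 1 sample were added after the data were seen.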

Additional observations from a re-analysis of the deposited data

Results flagged for a closer look

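Among 29 groups of samples with more than 3 reads of a member in at least 1 of them, 2 held a sample far from the others by Dixon's test, which flags about 1 in 20 groups by chance. *Mest* was lowest in *Dbx2*-NSPC number 4, at 124.86 CPM, among the 4 *Dbx2*-NSPC samples numbered 1 to 4. *Ndn* was lowest in *GFP*-NSPC number 1, at 5.24 CPM, among the 4 *GFP*-NSPC samples numbered 1 to 4.

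The log2 fold change of *H19* in numbers 5 to 8 was 2.47 above that of numbers 1 to 4 in the fit (limma adjusted p = 0.0238), but *H19* was under the floor in all 8 samples numbered 5 to 8. Its fitted change there was 0, so this value repeats the fold change of numbers 1 to 4, and whether the sets differ in it could not be tested.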

How the results depend on the processing

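Of the 5 tested members, none was called over the 16 samples, and edgeR called 1 (*H19*), the replicate block 1 (*Peg3*) and the number set as a covariate 2 (*H19* and *Peg3*); leaving out any sample gave 0. In numbers 1 to 4 the call of *H19* became 0 calls without a filter, and also with a mean of at least 5 CPM, where *H19* is no longer tested; leaving out a sample gave 1 in each case. In numbers 5 to 8 edgeR called 2 members (*Mest* and *Ndn*), and leaving out a sample gave 1 to 3, the latter without *GFP*-NSPC number 8. For the difference between the number sets the single call, *H19*, which rests on reads under the floor in numbers 5 to 8, became 0 calls with a pseudocount of 0.1, a mean of at least 5 CPM or edgeR, and 2 (*H19* and *Dlk1*, the latter at 0 reads in numbers 5 to 8) without a filter; leaving out a sample gave 0 to 1, with 0 without *GFP*-NSPC number 1 or 2 or *Dbx2*-NSPC number 3 or 6. The other imprinted genes gave 8 to 12 calls when a sample was left out. The imprint methylation genes gave 5 calls with the replicate block and with the number set as a covariate (*Trim28* and *Uhrf1* added), and 3 to 5 when a sample was left out, with 5 without *GFP*-NSPC number 1. The block changed no other call of these counts by over 1.5 times.

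Leaving out a sample turned the sign of small fold changes: *Mest* in numbers 1 to 4 ran from -0.11 to 0.10, *Plagl1* in numbers 1 to 4 from -0.33 to 0.088, and the differences between sets from -0.022 to 0.096 for *Peg3* and from -0.34 to 0.14 for *Plagl1*. The cause was not tested, other than where a gene was no longer among those tested. At this depth, *Igf2*, *Meg3*, *Grb10* and *Zdbf2* were at or under the floor of 3 reads in every sample, so that no change of them could be detected, and *Dlk1* was above it in 2 samples.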
